A study of Mus musculus with 48 samples.

Results

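The comparison described here set mice without a working Tph2 allele (Tph2-/-) against mice with a single working allele (Tph2+/-), and asked what the loss of the second allele adds to methylated DNA in the amygdala. Its members were chosen by genotype label alone and are 32 of the 48 libraries of the series, with 1 library per mouse. They fall into 4 groups of 8 male mice of 4 months of age: Tph2+/- C and Tph2-/- C, which were reared without stress, and Tph2+/- MS and Tph2-/- MS, whose pups spent 3 h of each day, between postnatal days 2 and 15, away from the dam (maternal separation, MS). The 16 Tph2+/+ libraries, also split between C and MS, serve as the reference for the first lost allele. All genotypes were offspring of Tph2+/- parents on a C57BL/6N background, the null allele is constitutive rather than limited to neurons, and the tissue is a whole amygdala homogenate, so a lower level per cell and fewer cells of a type cannot be told apart. DNA close to Tph2 on chromosome 10 is inherited together with the allele. Near the gene, the loss of an allele and differences in linked DNA therefore cannot be told apart by this design.

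Tph2 encodes tryptophan hydroxylase 2, the rate-limiting enzyme of serotonin synthesis in neurons of the raphe nuclei. These neurons project to the amygdala, where the enzyme's product acts on many receptors, but the gene itself is hardly used by amygdala cells. The readout was capture of methylated DNA by a methyl-CpG-binding domain (MBD), followed by sequencing. A locus is a merged peak of captured DNA, and its count rises with the number and density of methylated CpG sites and also with the number of copies of that sequence in the animal, which the assay cannot separate.

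Of the 7 loci that differed, 6 were sequence copies of a single gene, so sequence is shown before values. Each line holds 200 bases of the GRCm38 reference (RefSeq) 5′ to 3′ on the plus strand, the stretch of the locus with the most CpG sites, with the CpG sites in capitals. The first belongs to a called locus in an exon of the pseudogene Gm32802 (chr10:118260077-118260276), and the second is the stretch of the Cdc5l messenger RNA (GENCODE M21) that it aligns to. Cdc5l lies on chromosome 17 and encodes a core protein of the spliceosome. The third belongs to the called locus outside an exon (chr10:118257811-118258010), and the last 2 to loci with no other copy in the reference, between Tph2 and the pseudogenes (chr10:117555559-117555758) and beside Tph2 (chr10:115073258-115073457).
Gm32802 exon: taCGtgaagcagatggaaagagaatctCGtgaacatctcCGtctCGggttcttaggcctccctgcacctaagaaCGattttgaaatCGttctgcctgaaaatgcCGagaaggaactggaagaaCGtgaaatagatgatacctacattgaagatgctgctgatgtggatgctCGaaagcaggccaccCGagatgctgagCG
Cdc5l transcript: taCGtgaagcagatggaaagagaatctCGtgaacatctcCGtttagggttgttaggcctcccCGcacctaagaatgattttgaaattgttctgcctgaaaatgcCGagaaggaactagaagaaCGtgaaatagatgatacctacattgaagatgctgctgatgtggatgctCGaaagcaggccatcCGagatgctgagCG
Near Gm32802: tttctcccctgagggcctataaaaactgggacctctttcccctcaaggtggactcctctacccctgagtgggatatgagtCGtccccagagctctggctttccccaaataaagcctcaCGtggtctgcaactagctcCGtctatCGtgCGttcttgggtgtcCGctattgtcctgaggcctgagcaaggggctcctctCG
Near Gm32235: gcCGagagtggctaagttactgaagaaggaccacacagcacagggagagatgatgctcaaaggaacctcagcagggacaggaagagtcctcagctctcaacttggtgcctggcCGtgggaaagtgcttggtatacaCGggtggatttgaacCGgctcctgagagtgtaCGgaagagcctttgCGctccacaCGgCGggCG
Near Tph2: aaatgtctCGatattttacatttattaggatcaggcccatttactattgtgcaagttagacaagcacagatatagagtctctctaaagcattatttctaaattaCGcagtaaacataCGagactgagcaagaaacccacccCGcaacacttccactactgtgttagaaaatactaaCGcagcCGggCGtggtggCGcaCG
The Gm32802 stretch differed from the Cdc5l transcript at 8 of 200 bases (96.0% identity). Counted from 1 at the 5′ end, with the Cdc5l base first, the 8 differences were T43C, A45C, G51C, C63T, T75C, T87C, A117G and T185C, of which A45C, T75C and T87C gained a CpG site and C63T lost one. The pseudogene stretch thus held 11 CpG sites and the Cdc5l stretch 9.

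Total counts of the libraries in the fits, in mega counts (M), ran from 7.72 to 14.1 M in the 4 groups. In C, Tph2-/- libraries held 11.1 ± 1.12 M counts and Tph2+/- libraries 9.93 ± 1.66 M (SD, 8 libraries of either; 2-sided exact permutation p = 0.114, 0.228 adjusted over both conditions), and in MS 11.3 ± 1.43 M (n = 6) and 11.3 ± 1.46 M (n = 8; exact permutation p = 0.933). Tph2-/- MS replicates 3 and 7, whose totals were the smallest of their group, did not enter the fits, which leaves 14 Tph2-/- and 16 Tph2+/- libraries, and their values are given where they bear on a result. Sample numbers followed the rearing condition, with S1 to S17 and S42 to S48 in C and S18 to S41 in MS, so order and rearing cannot be told apart, whereas both genotypes occur in every run of numbers. The dependence of log2 counts on CpG density (change per SD of density) averaged -0.017 ± 0.037 (SD, n = 8) for Tph2-/- C against -0.032 ± 0.041 (n = 8) for Tph2+/- C, and in MS 0.044 ± 0.129 (n = 6) and -0.003 ± 0.075 (n = 8), with no difference that passed an exact permutation test (p = 0.468 and p = 0.418).

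The loci of the targeted gene itself did not separate the genotypes. Tph2 lies at chr10:115078641-115185022 on the minus strand and holds 15 loci, whose summed level was 41.8 ± 4.17 CPM (counts scaled to library size by TMM, with SD, n = 8) in Tph2+/- C against 39.7 ± 3.43 (n = 8) in Tph2-/- C, and 39.5 ± 3.17 in Tph2+/- MS (n = 8) and 38.3 ± 4.97 in Tph2-/- MS (n = 6). The library ranges overlapped, at 34.3 to 46.5 against 33.7 to 43.9 in C and 33.8 to 44.1 against 30.7 to 45.9 in MS. Of the 15 loci, 8 were lower in Tph2-/- mice, the median log2 fold change was -0.004, and 0 passed an adjusted p of 0.05 in edgeR or in any of 43 alternative fits. A single intronic locus (chr10:115167832-115168438) had an unadjusted p under 0.05, with a log2 fold change of -0.59 (SE 0.23, unadjusted p = 0.0124, edgeR). The labels were therefore not checked by the gene itself.

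Averaged over both rearing conditions, 7 of 187695 loci (0.00373% of loci, the background rate of this call) differed between Tph2-/- and Tph2+/- mice at a Benjamini-Hochberg adjusted p under 0.05 in edgeR's quasi-likelihood test. All 7 were lower in Tph2-/- mice, and all lay within chr10:118238775-118344240, about 3 to 4 Mb from Tph2 on its upstream side. Of these, 6 lay in exons of 4 genes that RefSeq lists as pseudogenes, namely Gm32717, Gm9029, Gm32802 and Gm9046, and these 6 matched the Cdc5l transcript at 94.8 to 97.9% identity. The seventh, 377 bp from Gm32802, matched the transcript of Eaf2, which encodes an elongation factor-associated protein, at 93.3% over 56.7% of its length. Of its bases 90.7% are marked as repeats in the reference, so the match need not mean a copy of Eaf2. The loci that follow in order of p were at Gm9030 (adjusted p = 0.0588) and Gm9048 (adjusted p = 0.0873), also among the pseudogenes, by the same test.

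The lowest p belonged to a 1060 bp locus in Gm32717 (chr10:118238775-118239834). In C its lowest, median and highest levels were 2.47, 3.26 and 4.58 CPM in Tph2+/- and 0.597, 1.14 and 1.83 CPM in Tph2-/- mice, and in MS they were 2.38, 3.36 and 4.77 CPM against 0.861, 1.73 and 2.46 CPM. All 8 Tph2-/- C libraries lay under every Tph2+/- C library, and in MS 5 of 6 lay under every Tph2+/- library. This was a log2 fold change of -1.20, with SE 0.15 and an adjusted p of 1.06e-07 (edgeR), and it was -1.44 in C and -0.97 in MS. Non-overlap of the groups in this direction was found at 16 of all loci (0.00852%) in C and at 47 (0.025%) in MS.

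The 939 bp locus in Gm32802 (chr10:118258290-118259228) held few counts in Tph2-/- libraries. Levels in C were 1.71, 2.35 and 2.99 CPM (lowest, median and highest) in Tph2+/- and 0.171, 0.333 and 0.963 CPM in Tph2-/- mice, from 2 to 12 counts in the latter. In MS they were 1.88, 2.43 and 3.09 CPM in Tph2+/- and 0, 1.08 and 3.01 CPM in Tph2-/- mice, where the highest value, that of replicate 2, lay within the Tph2+/- range and the other 5 libraries lay under it. Over both conditions the log2 fold change of -1.73 had an SE of 0.22 and an adjusted p of 3.11e-06 (edgeR). The 1014 bp locus in Gm32717 (chr10:118240183-118241196), which is the same sequence in the opposite direction over 939 aligned bases, fell too, from 2.48 ± 0.887 CPM (SD, n = 16 Tph2+/-) to 0.746 ± 0.575 CPM (n = 14 Tph2-/-), with a log2 value of -1.74 (SE 0.23, edgeR adjusted p = 3.45e-05). In C its Tph2+/- libraries ran from 0.394 to 4.32 CPM and overlapped the Tph2-/- libraries at 0 to 1.16 CPM.

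A 1090 bp locus in Gm32802 (chr10:118259603-118260692) equals the first Gm32717 locus, in the opposite direction, over 1059 aligned bases and holds the stretch printed above. Its levels in C were 1.65, 2.59 and 3.32 CPM in Tph2+/- and 0.556, 1.03 and 1.37 CPM in Tph2-/- mice, without overlap. In MS the values of 2.13, 3.03 and 4.54 CPM in Tph2+/- mice overlapped those of 0.832, 1.58 and 2.32 CPM in Tph2-/- mice. Its log2 value was -1.17 (SE 0.17, edgeR adjusted p = 2.52e-05). A short read from either member of such an identical pair fits both, so which copy a count stems from is uncertain.

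The other 3 called loci moved less or held fewer counts. The locus near Gm32802 (chr10:118257496-118258288) held 1.03 ± 0.314 CPM (SD, 16 Tph2+/- libraries) and 0.325 ± 0.361 CPM (14 Tph2-/- libraries with 0 to 12 counts), a log2 value of -1.74 (SE 0.32, edgeR adjusted p = 0.0138). The widest, 3457 bp in Gm9046 (chr10:118340784-118344240), held 10.6 ± 1.10 and 7.46 ± 1.67 CPM and fell by 0.50 on the log2 scale (SE 0.09, adjusted p = 0.0138, edgeR). The locus in Gm9029 (chr10:118244249-118245233) held 3.51 ± 0.797 and 2.12 ± 0.715 CPM and fell by 0.70 on the same scale (SE 0.14, edgeR adjusted p = 0.0455). These 3 lost their adjusted call under some alternatives: with S18 to S26 left out or the 4 groups fitted alone the adjusted p of all 3 exceeded 0.05, as it did for the Gm9029 locus in 19 of 30 fits without a single library.

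**Figure D1:**
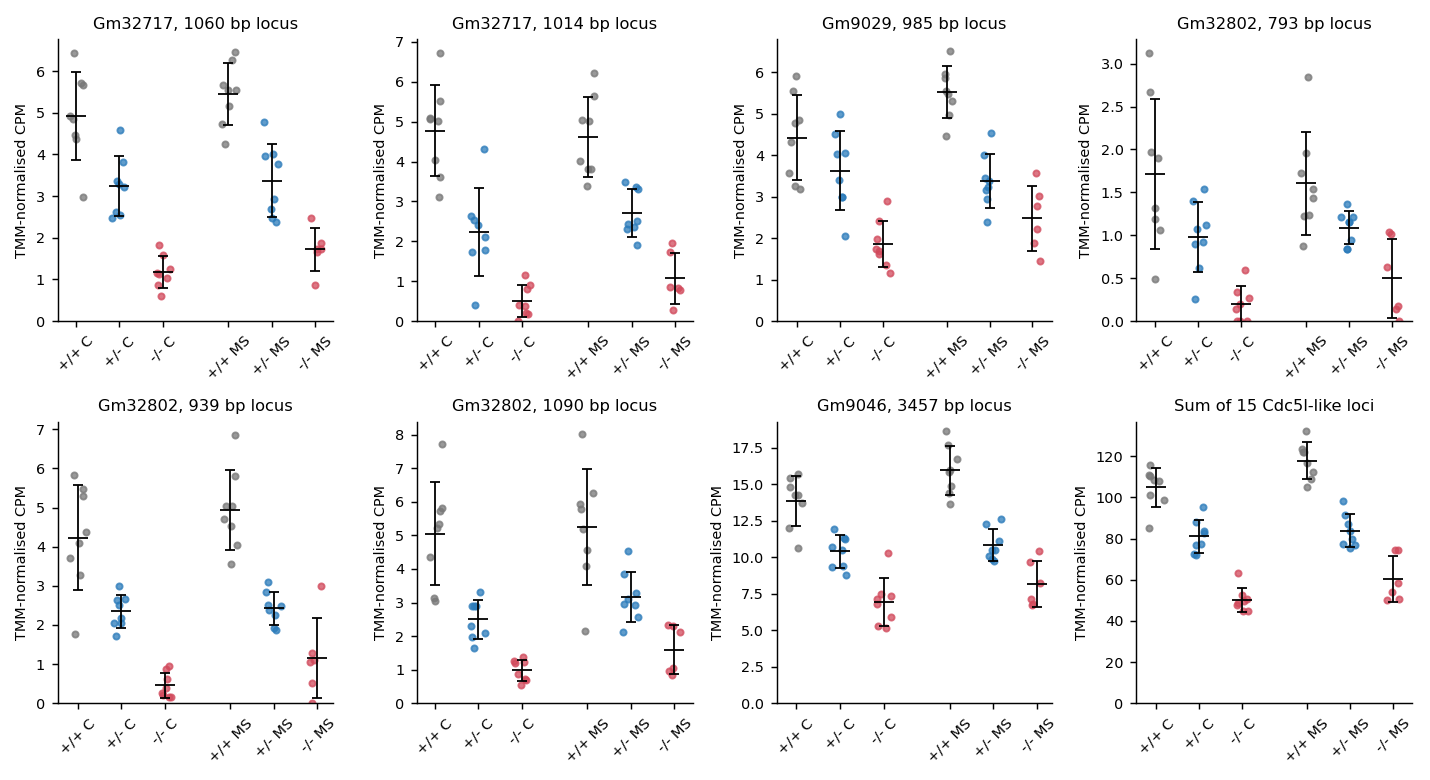
TMM-normalised CPM (y axis, from 0) of each library at the 7 called loci, ordered by position, and summed over the 15 Cdc5l-like loci, for each genotype in C and MS (x axis); points are libraries, bars the mean and SD. In the sum, the Tph2-/- libraries lie at 44.8 to 63.3 CPM in C and 50.0 to 74.4 CPM in MS, under the Tph2+/- libraries at 71.9 to 95.4 and 75.6 to 98.4 CPM.

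In all, 15 loci on chromosome 10 matched Cdc5l best among named protein-coding transcripts. The match was run only on loci called here or between Tph2-/- and Tph2+/+ mice, and on loci near those called here. Each of the 15 has 9 other copies at 95% identity or more within the cluster. All 15 were lower in Tph2-/- mice with an unadjusted p under 0.05 (edgeR), where 2.34% of all loci were, at a median of -0.56 on the log2 scale and a range of -1.74 to -0.37. The set was delimited with its values known, so this describes it and tests nothing. Summed over the 15 loci, Tph2+/- C libraries held 81.1 ± 8.0 CPM (SD, n = 8) and Tph2-/- C libraries 50.3 ± 5.86 CPM (n = 8), and in MS the sums were 83.8 ± 8.09 CPM (n = 8) and 60.3 ± 11.3 CPM (n = 6). In neither condition did the genotypes overlap, and the sum does not depend on how reads were divided among these loci. Within Tph2-/- MS, replicates 2 (74.4 CPM) and 5 (74.2 CPM) lay just under the lowest Tph2+/- MS library (75.6 CPM). Of the 2 libraries that did not enter the fits, replicate 7 held 62.9 CPM, and replicate 3 held 89.8 CPM, within the Tph2+/- MS range.

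The gene Cdc5l on chromosome 17 was measured at 1 locus, over coding sequence (chr17:45419215-45419862). It held 1.91 ± 0.513 CPM (SD, 16 Tph2+/- libraries) and 1.89 ± 0.647 CPM (14 Tph2-/- libraries), a log2 value of 0.00 (SE 0.17, edgeR unadjusted p = 0.991). A difference was thus called at copies on chromosome 10 and not at the locus of the parent gene.

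The stretch of chromosome 10 between the first and the last Cdc5l-like locus (chr10:118238090-118354448) held 26 loci, of which 19 (73.1%) were lower at an unadjusted p under 0.05 and 0 were higher. The exceptions lay side by side in its middle: 7 loci beside Iltifb, an interleukin 22 gene copy, and at the near edge of Gm9040 had log2 fold changes from -0.36 to 0.21. The loci on both sides of these 7 were lower. Just outside the stretch, a locus of the pseudogene Gm9585 (chr10:118232979-118233539), which resembles Limk1 (84.1% identity) rather than Cdc5l, had a log2 value of -0.79 (SE 0.22, edgeR unadjusted p = 0.000423).

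Chromosome 10 was then followed outwards from Tph2. In the interval from the locus beside Tph2 to one in Ifngas1 (chr10:115072171-118535754), 551 loci were tested. Its ends were set by the outermost loci that separated Tph2-/- from Tph2+/+ mice at an adjusted p under 0.05 (edgeR). The same Tph2-/- libraries thus set the interval, and loci that set it are counted among the lower ones below. Its shares therefore describe it and test nothing. Without the pseudogene stretch, 525 were left, whose median was -0.005 on the log2 scale, 21 lower (4.00%) and 15 higher (2.86%) at an unadjusted p under 0.05, against 2.34% and 2.29% of all loci. In the 1 Mb next to Tph2 upstream, 1 locus (0.952%) was lower by this measure, and in the following 1 Mb 3 of 186. The share was 6.35% of 189 loci at 2 to 3 Mb, 15.4% at 3 to 4 Mb, which hold the pseudogenes, and 3.97% of 151 loci at 4 to 5 Mb. On the other side of Tph2, 3 of 34 loci (8.82%, median -0.09) in the nearest 1 Mb were lower, 3.57% at 1 to 2 Mb, 5.24% at 2 to 5 Mb and 3.4% at 5 to 10 Mb. Of these bins, that of the pseudogenes had the highest share of lower loci.

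**Figure D2:**
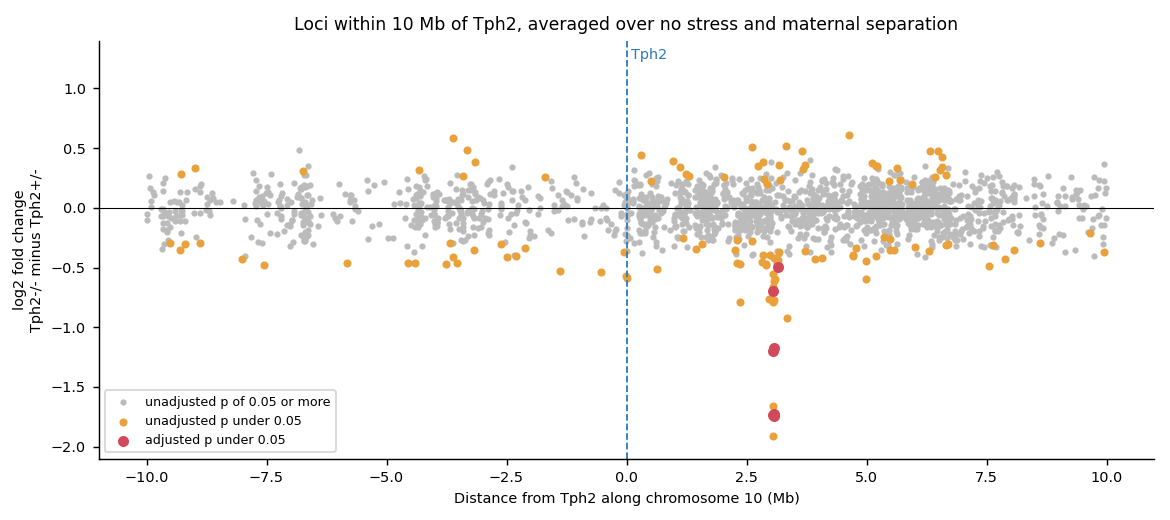
Log2 fold change of Tph2-/- against Tph2+/- mice (y axis) by distance from Tph2 along chromosome 10 in Mb (x axis, 0 is the gene), for loci within 10 Mb; colours mark the p limits and each point is a locus. The 7 loci with an adjusted p under 0.05 stand between 3 and 4 Mb, at -1.74 to -0.50.

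For comparison with the copies, 2 loci of the interval without another copy in the reference are given, both chosen by p: the first after values were seen, and the second as the locus with the smallest p in MS. The locus near the long non-coding RNA gene Gm32235 (chr10:117554938-117555914) held 2.22 ± 0.525 CPM (SD, 16 Tph2+/- libraries) and 1.24 ± 0.508 CPM (14 Tph2-/- libraries), a log2 value of -0.79 (SE 0.17, edgeR adjusted p = 0.103), and the values were -0.91 in C and -0.67 in MS. Within the runs of sample numbers its log2 ratio of means was -1.28 in S1 to S17, -0.10 with overlap in S42 to S48, -0.72 in S18 to S26 and -0.81 in S27 to S41. The locus beside Tph2 (chr10:115072171-115073639, 5002 bp from the gene) gave other values in C than in MS. In C it held 1.61, 2.36 and 3.02 CPM (lowest, median and highest) in Tph2+/- and 1.71, 2.29 and 2.88 CPM in Tph2-/- mice, which overlapped fully, with a log2 fold change of 0.01. In MS it held 1.82, 3.02 and 4.42 CPM in Tph2+/- and 0.463, 1.5 and 2.46 CPM in Tph2-/- mice, with 5 of 6 Tph2-/- libraries under every Tph2+/- library and a log2 value of -1.15 (SE 0.23, edgeR adjusted p = 0.481). The difference between the conditions was -1.16 (SE 0.31, edgeR adjusted p = 1.0), which is a description because the locus was picked for its MS value, and within the runs of sample numbers the log2 fold change was -1.86 in S18 to S26 and -0.75 in S27 to S41.

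Each rearing condition was also tested by its own contrast in the same fit. The libraries compared are not shared between the conditions, but the dispersion estimate is. Without stress, 5 loci (0.00266%) had an adjusted p under 0.05 in edgeR, all lower in Tph2-/- mice: the 4 loci with the smallest p above and a locus 456 bp from Gm32717 (chr10:118241257-118241919). The latter held 0.263 to 2.11 CPM in Tph2+/- C and 0 to 0.795 CPM in Tph2-/- C mice, from 0 to 8 counts, a log2 value of -3.08 (SE 0.58, edgeR adjusted p = 0.0443). In MS the value of this locus was -0.73 (SE 0.50, edgeR unadjusted p = 0.147), and the difference between the conditions was 2.35 (SE 0.80, edgeR adjusted p = 1.0), on a locus picked for its C value. After maternal separation 0 loci passed in edgeR, DESeq2 or limma voom, and 9333 (4.97%) had an unadjusted p under 0.05 in edgeR (10189 in DESeq2 and 6768 in voom). All 7 loci called over both conditions were lower in MS, by 0.41 to 1.37 on the log2 scale. The MS libraries had helped to choose these loci, so this describes them and is no separate support.

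The step from Tph2+/- to Tph2-/- was smaller in MS than in C at all 7 loci, by 0.17 to 1.22 on the log2 scale. This difference was tested as the interaction, in which 0 loci passed an adjusted p of 0.05 in edgeR, DESeq2 or voom (7013, 7773 and 7154 at an unadjusted p under 0.05, with 3.74% in edgeR, and 1121 or 0.597% at the limits given below). Among the 7 loci the 939 bp Gm32802 locus alone had an unadjusted p under 0.05, with a difference of 1.22 (SE 0.45, edgeR unadjusted p = 0.00892). Its Tph2-/- MS libraries ran from 0 to 3.01 CPM, with a median of 1.08 CPM. All 7 have near-identical copies in the cluster and may share reads, so they are not 7 separate observations. The interaction with the smallest p lay in an intron of Dab1, an adaptor of reelin signalling (chr4:104151666-104152354). That locus held 1.27 ± 0.376 CPM (SD, n = 8) in Tph2+/- C and 2.04 ± 0.468 CPM (n = 8) in Tph2-/- C mice, but 1.82 ± 0.388 (n = 8) and 0.865 ± 0.346 CPM (n = 6) in MS, an interaction of -1.74 (SE 0.40, adjusted p = 1.0, edgeR).

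Calls at the study's own limits (fold change over 0.2 on the log2 scale in either direction, with unadjusted p below 0.01) gave a wider list against which the conditions could be compared. Over both conditions 1538 loci (0.819%) passed, 742 higher and 796 lower in Tph2-/- mice. Without any adjustment a p limit of 0.01 also passes loci that do not differ, at a share as large as the one seen here, so the list is a description, and outside the 7 loci above none of its members is called changed. In C 1002 (0.534%) and in MS 1666 (0.888%) passed. Of those in C, 13 (1.30%) also passed in MS in the same direction, which is 0.780% of the MS list, and 4 passed in the opposite direction. Of the 13, 10 lay in the chromosome 10 interval, where 10 of 27 C calls (37%) and 10 of 22 MS calls (45.5%) were shared. All of these 10 except the intergenic loci near Gm32235 and Gm9585 lay in the pseudogene stretch. Its near-identical copies may share reads, so they do not count as separate loci. Elsewhere 3 of 975 C calls (0.308%) and 3 of 1644 MS calls (0.182%) were shared, and 53.3% of the C calls had the same direction in MS. Across all loci the log2 fold changes of the conditions had a Pearson r of 0.056 (Spearman rho 0.062, n = 187695 loci) and across the interval 0.470 (rho 0.255, n = 551), as a description over loci of the same libraries. The interval was itself set with these Tph2-/- libraries and holds the near-identical copies.

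**Figure D3:**
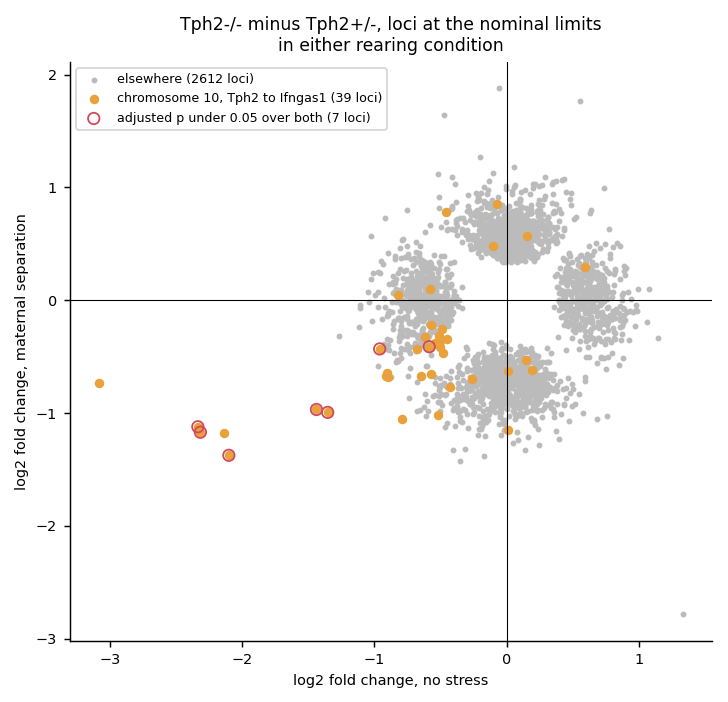
Log2 fold change of Tph2-/- against Tph2+/- mice in C (x axis) and in MS (y axis) for each locus at the study's limits in either condition; the empty centre follows from those limits. Grey points are loci outside the chromosome 10 interval, and orange points are inside it. Circles mark the 7 loci with an adjusted p under 0.05, which were chosen on both conditions together and are lower in each.

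The 3 shared loci outside the interval were in a coding exon of Gpnmb, in an intron of Casz1 and near Gm18820. Gpnmb encodes a membrane glycoprotein of macrophages and microglia, and its locus (chr6:49046972-49048915) held 4.73, 5.86 and 7.41 CPM (lowest, median and highest) in Tph2+/- C and 6.67, 7.54 and 8.76 CPM in Tph2-/- C mice. In MS it held 5.31, 5.95 and 8.35 CPM against 6.89, 9.83 and 10.9 CPM, so that groups overlapped in both conditions. On the log2 scale the difference was 0.45 (SE 0.10, edgeR adjusted p = 0.145), and it passed the adjusted limit in DESeq2. Casz1, a zinc finger transcription factor, held 1.46 ± 0.488 CPM (SD, 16 Tph2+/- libraries) and 2.42 ± 0.566 CPM (14 Tph2-/- libraries) at chr4:148827726-148828519, a log2 value of 0.72 (SE 0.18, edgeR adjusted p = 0.771).

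Among protein-coding genes off chromosome 10, the loci with the smallest p that were higher in Tph2-/- mice lay in Gpnmb, Ttc17, Casz1, Arid4a, which encodes a chromatin-binding protein, and Alpk1, a kinase of innate immunity, at log2 fold changes of 0.45 to 0.72. Those that were lower lay in Tbc1d23, which acts in endosome to Golgi transport, Lhfp, Abca4, a retinoid transporter, Slc27a1, a fatty acid transporter, and Rgs9, which quenches G protein signals, at -0.89 to -0.46. None of the 10 passed an adjusted p of 0.05 in edgeR. The loci of Tbc1d23, Lhfp and Abca4 also overlap another gene each. At Tbc1d23 (chr16:57172898-57173989, also Gm16892), the lower locus with the smallest p, levels were 5.79 ± 1.14 CPM (SD, 16 Tph2+/- libraries) and 4.15 ± 0.911 CPM (14 Tph2-/- libraries), a log2 value of -0.50 (SE 0.12, edgeR adjusted p = 0.390). It lay at 4.92 ± 1.12 CPM in Tph2+/+ mice (n = 16), between the other genotypes. At each of the 10 loci the Tph2+/+ mean lay between those of the other genotypes, at Casz1 with 2.09 ± 0.86 CPM (SD, n = 16). Tph2+/- mice thus stood lowest at the higher loci and highest at the lower ones. These loci were not graded by genotype as the chromosome 10 copies were. They were picked for the difference between Tph2-/- and Tph2+/- mice, which sets these genotypes apart. A Tph2+/+ mean between them can follow from that choice alone, so the order describes the loci and tests nothing.

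How the second lost allele compared with the first was followed at the 7 called loci on the linear scale. In the Gm32717 locus with the smallest p the mean over both conditions went from 5.19 CPM in Tph2+/+ to 3.31 in Tph2+/- and 1.45 in Tph2-/- mice, steps of 1.88 (SE 0.303) and 1.85 (SE 0.235) CPM. In the 939 bp Gm32802 locus it went from 4.59 to 2.39 and 0.808 CPM, steps of 2.20 (SE 0.315) and 1.58 (SE 0.239) CPM. Over the 7 loci the second step made up 40 to 52.4% of the whole loss, with a median of 43.2%, and at 0 of 7 did the steps differ by more than 2 SE. Equal steps in CPM are unequal on the log2 scale, where the second step exceeded the first by 0.01 to 1.08, with an unadjusted p under 0.05 at 4 of the 7. Because these loci were chosen for the second step, the shares describe them and test nothing.

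**Figure D4:**
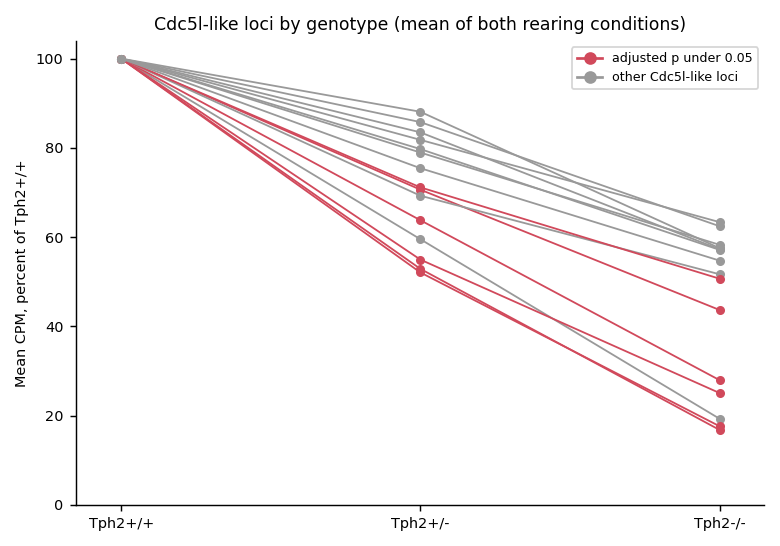
Mean CPM at the 15 Cdc5l-like loci as percent of the Tph2+/+ mean (y axis, from 0), averaged over C and MS, for the 3 genotypes (x axis); each line is a locus and red lines are those with an adjusted p under 0.05 between Tph2-/- and Tph2+/- mice. Every line falls from Tph2+/+ to Tph2+/- and again to Tph2-/-.

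Across the genome, the contrast of the second with the first step (log2 scale) gave 0 loci with an adjusted p under 0.05 in edgeR, DESeq2 or voom (7518, 8308 and 8285 at an unadjusted p under 0.05, with 4.01% in edgeR). At the study's limits 1251 loci passed (0.667%), 643 with a positive contrast and 608 with a negative one. A negative contrast means a second log2 fold change below the first, which was the sign at the called chromosome 10 loci. The smallest p was at Gm6367 on chromosome 5 (chr5:95023367-95024256). There Tph2+/- mice stood highest, with 3.02 ± 1.02 CPM (SD, n = 8) in C against 1.89 ± 0.728 (n = 8) in Tph2+/+ and 2.06 ± 0.688 (n = 8) in Tph2-/- mice, and 2.24 ± 0.734 CPM in MS against 1.18 ± 0.644 (n = 8 each) and 1.23 ± 0.477 (n = 6). The contrast was -1.46 (SE 0.31, adjusted p = 1.0, edgeR).

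The 1538 loci at the study's limits, of which 7 passed the adjusted limit, are described by annotation and direction with no test. Coding exons held 31% of the 742 higher loci and 11.9% of the 796 lower loci, against 18.2% of all loci. The median CpG density was 2.02 per 100 bp in the higher, 1.54 in the lower and 1.82 in all loci. In C the coding exon shares were 27.1% of higher and 12.2% of lower loci, and in MS, on other libraries, 28.1% and 13.9%. With counts adjusted for CpG density in each library the shares were 22.5% and 13.7%, and without S18 to S26 22.5% and 12.2%, so they kept their order. The order of the CpG densities turned, to 1.72 in higher and 1.78 in lower loci with that adjustment and to 1.79 and 1.92 without S18 to S26. Beyond this adjustment, the part of the libraries' CpG dependence in these shares was not tested. Chromosome 10 held 109 of the 1538 loci (7.09%) and 5.22% of all loci, and the X chromosome 14 (0.910%) and 1.64% of all loci.

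In 14 lists of genes, 5 of them markers of cell types, 0 loci had an adjusted p under 0.05 in edgeR, and the locus counts at lower limits are given beside those of all loci. In the genes of serotonin synthesis, transport and breakdown, 76 loci lay in 10 of 16 genes, with 1 higher and 0 lower at the study's limits, where 0.395% and 0.424% of all loci were. The higher locus lay in an intron of Slc6a4, the serotonin transporter, at a log2 fold change of 0.38 (SE 0.14, unadjusted p = 0.00847, edgeR). There Tph2+/- mice stood lowest, with 2.53 ± 0.662 CPM (SD, n = 16) against 3.28 ± 0.907 in Tph2+/+ (n = 16) and 3.27 ± 0.762 in Tph2-/- mice (n = 14). This locus was picked for its difference between Tph2-/- and Tph2+/- mice, so the order tests nothing. Serotonin receptor genes held 44 loci and 0 at these limits, and the loci with the smallest p lay in Htr1d (-0.32) and Htr3a, where it also overlaps Gm32335 (0.26). The stress axis list held 76 loci, 1 higher at the oxytocin receptor gene Oxtr, where it also overlaps Cav3 (0.28, SE 0.09), and 1 lower in Crhr1, a corticotropin-releasing hormone receptor (-0.46, SE 0.16). Neurotrophin genes (44 loci) and amygdala interneuron and peptide genes (97 loci) held 0 at these limits, with the smallest p in Ngfr (0.23) and Ntrk2 (-0.31), and in Reln (0.27) and Prkcd (0.36).

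For the lists that follow, the shares of all loci at the study's limits were again 0.395% higher and 0.424% lower. The GABA list had 102 loci, 0 higher and 3 lower at these limits. Among the 3 were loci in Gabbr2, a subunit of the metabotropic GABA receptor, at -0.66 on the log2 scale (SE 0.21, edgeR unadjusted p = 0.00182), and in a coding exon of Gad2, a GABA-synthesising enzyme, at -0.44 (SE 0.14, edgeR unadjusted p = 0.00293). Glutamate receptor genes had 319 loci, 2 higher, in Grin2d (0.44, SE 0.13) and Grin2c (0.26, SE 0.09), which encode NMDA receptor subunits, and 0 lower. The genes of DNA methylation had 79 loci, 1 lower in Tet1, which oxidises methylated cytosine (-0.68, SE 0.22), and 0 higher, and the next locus by p was in Tdg (0.29, but -0.07 without S18 to S26). The genes on chromosome 10 from Trhde to Grip1, which flank Tph2 and span the pseudogenes without holding them, had 327 loci, 3 higher and 3 lower. The smallest p of this list were at 2 loci of Mdm1, with log2 fold changes of -0.76 (SE 0.21) and -0.40 (SE 0.11).

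For genes that mark cell types, loci are described in the same way, which measures capture at these genes and not cell numbers. The median log2 fold change was 0.050 over 62 loci of neuron markers, 0.041 over 45 of oligodendrocyte markers, 0.007 over 37 of astrocyte markers, 0.041 over 20 of microglia markers and 0.038 over 87 of endothelial markers, against 0.007 over all loci. The loci with the smallest p lay in Slc17a6 (0.30) and Rbfox3 (0.42) for neurons, at 2 loci of Mbp (0.34 and -0.46), in Gja1 (0.24) and Slc1a3 (-0.27) for astrocytes, and in P2ry12, where it also overlaps Med12l (-0.53) and Csf1r (0.36) for microglia. Endothelial markers alone had loci at the study's limits, 1 higher in Pecam1 (0.43, SE 0.16) and 1 lower in Cdh5 (-0.67, SE 0.20), where 0.395% and 0.424% of all loci were.

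**Figure D5:**
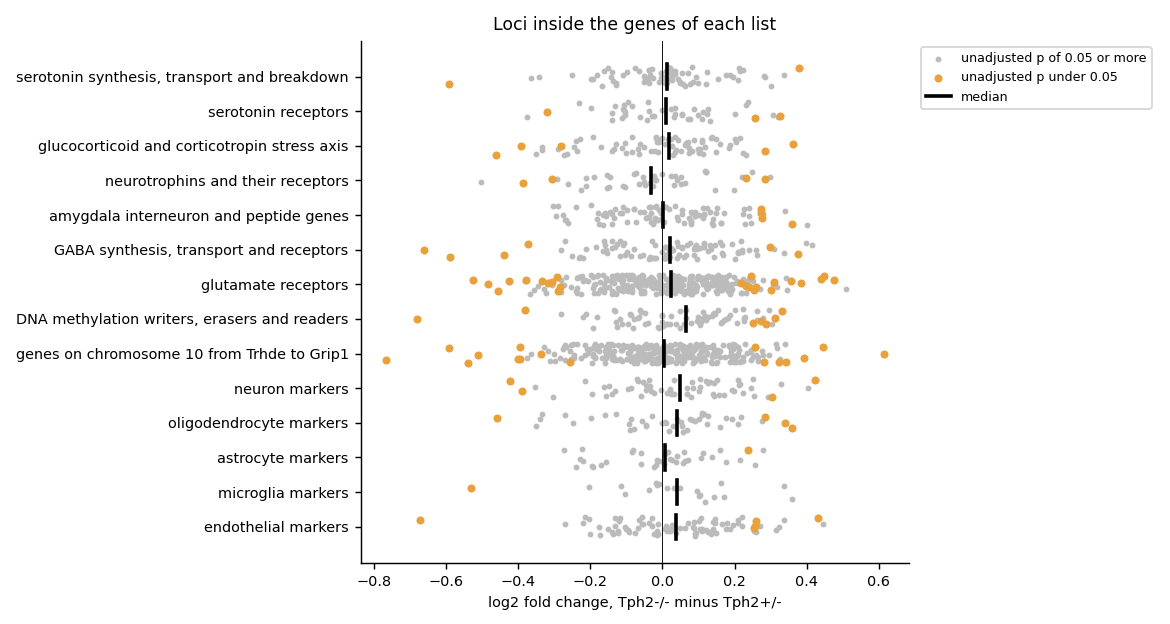
Log2 fold change of Tph2-/- against Tph2+/- mice over both conditions (x axis) for every locus inside the genes of the 14 lists (y axis); orange points have an unadjusted p under 0.05 and bars are medians. The medians lie between -0.030 (neurotrophins) and 0.064 (DNA methylation genes), and none of the points has an adjusted p under 0.05.

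Within the 4 runs of sample numbers, Tph2-/- libraries had the lower mean at each of the 7 called loci, that is in 28 of 28 comparisons, with no overlap of the libraries in 19. For the Gm32717 locus with the smallest p, the log2 ratio of means was -1.80 in S1 to S17 (5 Tph2-/- and 6 Tph2+/- libraries), -0.93 in S42 to S48 (3 and 2), -0.64 in S18 to S26 (3 and 2) and -1.06 in S27 to S41 (3 and 6), without overlap in any run. For the Gm9046 locus it was -0.64, -0.51, -0.44 and -0.45. The lower counts of Tph2-/- mice at these loci were thus seen in each run. As the loci were chosen for their values in these libraries and some are identical copies, the 28 comparisons describe them and test nothing. The share of all loci without overlap within a run was not counted, so the 19 has no background beside it. With only 3 and 2 libraries in S42 to S48 and in S18 to S26, groups separate easily. The labels do not give the cut between S26 and S27, which was set for this description.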

How the data were processed

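MBD-captured amygdala DNA of 48 mice was sequenced by the authors as paired reads, mapped with Bowtie2 2.1.0 to GRCm38, and peaks were called with MACS and merged over libraries. The deposited values are raw read counts per merged peak (locus), made by the authors with DiffBind 2.0.9. How reads of repeated sequence and duplicates were treated is not given in the sources used here, which matters at near-identical copies. All 48 columns were matched to samples by their labels, and every locus lay inside the GRCm38 chromosomes.

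For each locus the deposited counts entered a quasi-likelihood model (edgeR 4.0.16, R 4.3.3; TMM scaling, trended dispersion, robust quasi-likelihood F-test, 1 term per group, 46 libraries, all 187695 loci, Benjamini-Hochberg adjustment). The authors dropped 2 Tph2-/- MS libraries on quality grounds. Which ones is not given in the sources used here, so the 2 with the lowest totals (replicates 3 and 7) were dropped. The smallest library of the 4 groups held 7.72 mega counts. P-values rest on the spread between mice, and litters were not known. Alternatives used DESeq2 1.42.0, limma 3.58.1 voom, other scalings and other libraries, and linear levels are TMM-normalised CPM. Copies were sought with minimap2 2.31 (95% identity over 50% of the locus) and transcripts matched with BLAST 2.17.0. Total counts were compared by 2-sided exact permutation tests (scipy 1.17.1, Python 3.11.15). The fits were tested on simulated data, in which 100 loci per contrast were changed by 1 on the log2 scale. Over both conditions 87 were recovered at an adjusted p under 0.05 (edgeR), beside 6 unchanged loci. For the interaction 15 were recovered, beside 2 unchanged loci. At the study's limits 1835 unchanged loci passed over both conditions and 1841 in the interaction.

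Named loci were those with an adjusted p under 0.05, the smallest p of each other contrast, the 15 loci of Tph2, the 5 higher and 5 lower loci of protein-coding genes off chromosome 10 with the smallest p at the study's limits, and 2 loci per gene list. Loci described as chosen for their values fall outside this rule. Comparison, gene lists and rule were chosen with earlier results of these data known.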

Additional observations from a re-analysis of the deposited data

Results flagged for a closer look

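In 44 sets of 6 or 8 libraries (the 7 called loci, 2 further chromosome 10 loci, total counts and CpG dependence, each in the 4 groups), Dixon's test at the 95% level marked 3 libraries, where chance marks about 1 set in 20. At the Gm9046 locus (chr10:118340784-118344240), Tph2-/- C replicate 6 held 10.3 CPM, above the others of its group. For CpG dependence, Tph2+/- MS replicate 1 stood high at 0.161 (log2 counts for each SD of density). Tph2-/- MS replicate 4 had the largest total of its group, 14.1 mega counts.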

How the results depend on the processing

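All 7 loci called over both conditions were lower in Tph2-/- mice in every alternative and in all 30 fits without a single library, which kept the dispersions of the full fit. The 4 with the smallest p kept an adjusted p under 0.05 in all of these. The count of 7 went to 12 with total counts alone, 13 with the CpG offset, 11 when Tph2-/- MS replicates 2 and 3 were dropped rather than 3 and 7, 4 with the 4 groups alone and 14 in DESeq2, and ran from 4 (without Tph2-/- MS replicate 4) to 11 (without Tph2-/- MS replicate 2 or 5). Loci at the study's limits ran from 1083 to 2370 without single libraries, with 2344 without Tph2-/- MS replicate 5 and 2370 without replicate 8. In C the count of 5 went to 10 with the CpG offset, 8 without S18 to S26, 2 in voom and 8 in DESeq2, and ran from 3 (without Tph2-/- C replicate 3, 7 or 8) to 6. In MS the count of 0 went to 1 with replicates 2 and 3 left out instead and to 1 without S18 to S26 (0 to 1 without single libraries, 1 without Tph2-/- MS replicate 5). At the study's limits the MS count of 1666 went to 5103 with all 48 libraries (3631 higher and 1472 lower) and to 1045 in voom, and ran from 1011 to 3071 without single libraries (1011 without Tph2-/- MS replicate 2, 3031 without replicate 5, 3071 without replicate 8 and 2586 without Tph2+/- MS replicate 1). The interaction count of 1121 went to 1983 without S18 to S26. With total counts alone the split at the study's limits was 739 higher and 227 lower in C (462 and 540 with TMM), 244 and 1352 in MS (843 and 823), and 117 and 1222 for the interaction (546 and 575). The 15 loci of Tph2 held 0 adjusted calls in all 43 alternatives, with medians from -0.052 to 0.035. Among the other named loci, the direction turned at Tdg alone, from 0.29 to -0.07 on the log2 scale without S18 to S26. The difference in total counts in MS turned from 0.0764 to -0.717 mega counts with all 48 libraries. The cause of these changes was not tested.

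Replicate numbers were given to groups in common, but libraries with the same number did not deviate together (r from -0.022 to 0.042 over 8 pairs in C and -0.153 to 0.044 over 6 pairs in MS, 0 over 0.1). With the replicate block, 6 loci passed an adjusted p of 0.05 over both conditions, 5 in C, 0 in MS and 0 in the interaction and the second against first allele contrast. The count of loci limits what low levels can show: 3 of the called loci reached 0 counts in a Tph2-/- library, and the locus near Gm32802 held at most 12 in any Tph2-/- library.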
